A study of Mus musculus with 7 samples.

Results

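The comparison described here set the tips of the ureteric bud against the metanephric mesenchyme that surrounds them in the mouse embryonic kidney at E12.5, a stage counted in days of embryonic development. It used 4 of the 7 arrays of the series, 2 biological replicates of microdissected bud tips and 2 of microdissected mesenchyme, chosen by their labels. The genes compared were the 18194 that at least 1 non-control probe set names alone. The series also holds 2 arrays of dissected ureteric bud stalk, which entered the fit for the spread between replicates and serve below as the other part of the bud, and 1 array of mIMCD-3, a mouse collecting duct cell line, which did not enter it. According to the design text the tissue arrays came from an earlier study of the group and were recalculated together with the cell line to set epithelial against non-epithelial renal cells. No genotype, strain, sex or litter is given for the embryos, no treatment is named, and whether tissue was pooled from several embryos is not stated. The labels call the replicates biological but say no more of their origin. The p-values set each difference against the spread between replicates of the tissue arrays, stalk included, and apply to these samples.

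The ureteric bud is an epithelial tube that grows out of the nephric duct. The mesenchyme secretes the growth factor GDNF, which acts on the receptor Ret at the bud tips and makes them branch. The tips in turn send Wnt and FGF signals that keep nephron progenitors alive and turn some of them into epithelium, while Foxd1-bearing stromal cells lie around the progenitors. Tip cells remain proliferating precursors of the collecting ducts, and stalk cells behind them elongate and begin to mature.

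Every level below is the log2 of a linear RMA intensity, and a difference is tip minus mesenchyme on that scale, so that a difference of 1 is a 2-fold change. The error after ± is the standard error of the difference in the limma fit, with n = 2 arrays in each group. A gene is said to have risen or fallen in the tip, or is called, where its Benjamini-Hochberg adjusted p over all 18194 genes was under 0.05. Levels are compared between samples for one gene and never between genes.

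Array medians of the tissue samples lay between 45.5 and 49.0 intensity units. Across all non-control probe sets, which are not independent replicates, replicates correlated at r = 0.994 in mesenchyme and 0.990 in tip. The mean levels of the 2 tissues correlated at r = 0.968. The replicate arrays differed from each other with an SD over these probe sets of 0.26 in mesenchyme and 0.35 in tip. The dissections matched their labels on defining genes: Cdh1, Ret and Wnt11 were high on both tip arrays, and Six2, Foxd1 and Vim on both mesenchyme arrays. Markers of other cell types moved along with the comparison. Of 17 endothelial markers 14 fell in the tip and none rose, and their summed linear intensity was 4935 to 5385 in mesenchyme and 1645 to 1709 in tip. The embryonic globins and other erythroid genes summed to 24110 to 24481 in mesenchyme and 9873 to 10187 in tip, and macrophage markers to 1304 to 1541 and 509 to 604. The part of blood vessels, blood cells and macrophages in the genes that fell was not tested. In whole dissected tissue a smaller share of a cell type and less RNA per cell cannot be told apart.

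A large part of the genes differed between the 2 tissues. Of 18194 genes 1342 rose in the tip (7.38%) and 1523 fell (8.37%), together 15.7%. Counts of called members of the gene lists below are to be set against these shares. For all 1342 genes that rose and all 1523 that fell the tip and mesenchyme arrays did not overlap, so the lack of overlap adds nothing to a call. At least 2-fold changes were called for 693 genes that rose and 804 that fell. The median difference over all genes was 0.01. Among called genes with several probe sets, 1366 of 1683 had every probe set on the same side, and 6 had a probe set called in the opposite direction. Of the called genes named below, Rbm47, Zeb1, Etl4, Meis1, Vcan, Fbln2, Acta2, Wnt5a, Lgr5, Fzd6, Fgfr2, Sema4d, Epha1, Nrp2, Hoxa10, Dlk1, Meg3, Ptprc and Xist have a probe set of the other sign. Leaving out mesenchyme replicate 1 left 1023 genes that rose and 987 that fell. With the replicate number as a block 2037 rose and 2331 fell, and all 2865 genes called without it were called the same way.

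**Figure D1:**
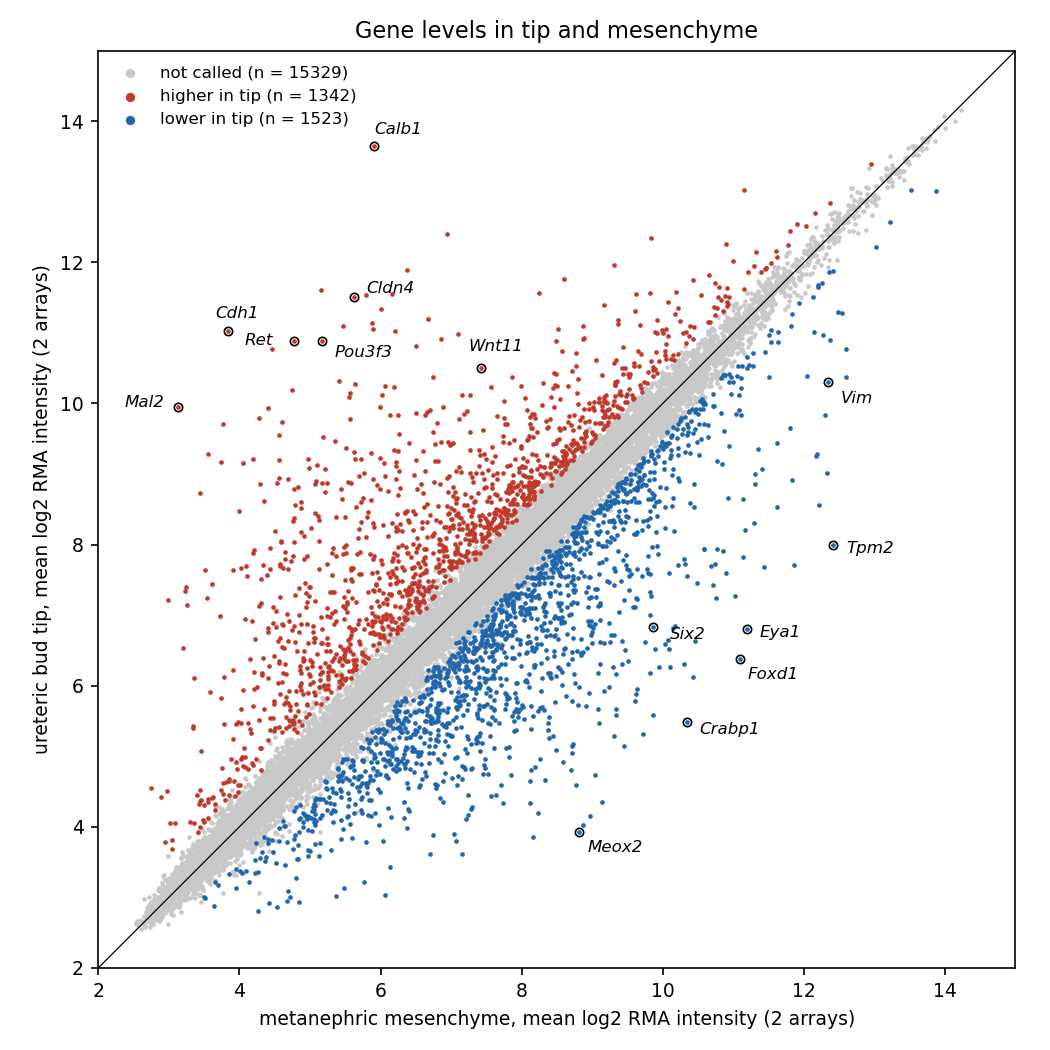
Each point is 1 of 18194 genes, with the mean log2 RMA intensity of the 2 mesenchyme arrays on the x axis and of the 2 tip arrays on the y axis. Red points are the 1342 genes called higher in tip, blue points the 1523 called lower, grey points the rest, and the line marks equal levels. Cdh1, Mal2 and Ret lie far above the line, and Meox2, Crabp1 and Foxd1 far below it.

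The genes with the largest rises in the tip included those of claudins, E-cadherin and Ret. Calb1, which encodes the calcium-binding protein calbindin, stood at 6.26 and 5.56 on the mesenchyme arrays and at 13.68 and 13.62 on the tip arrays. The difference of 7.74 ± 0.22 (adjusted p = 1.6e-06) is 213-fold on the linear scale, the largest of the called genes. Cdh1, which encodes E-cadherin, followed at 4.0 and 3.68 in mesenchyme against 11.09 and 10.97 in tip, a difference of 7.19 ± 0.15 (adjusted p = 7.3e-07). Its mesenchyme level lay below the lower quartile of each array. For 87 of the genes that rose, the mean mesenchyme level was that low, and RMA values of such dim genes understate a change. The next were Mal2, a protein of apical transport (6.81), the claudins Cldn8 (6.46), Cldn4 (5.88), Cldn6 (5.75) and Cldn7 (5.63), the splicing factor Esrp1 (6.31) and Ret (6.10). Aldh1a1, a retinaldehyde dehydrogenase (5.95), the kinase Ripk4 (5.73), the POU factor Pou3f3 (5.72), occludin (Ocln, 5.54), keratin 8 (Krt8, 5.52) and the CP2 factor Tfcp2l1 (5.51) completed the 15 largest. Genes whose tip and mesenchyme arrays overlapped were to be left out before these 15 were ranked, but no called gene had such arrays.

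The 15 deepest falls included those of transcription factors and Wnt agonists. Meox2, a homeobox factor, stood at 9.02 and 8.62 in mesenchyme and at 3.95 and 3.91 in tip, where it was below the lower quartile (−4.89 ± 0.16, adjusted p = 2.1e-06). The retinoic acid binding protein Crabp1 (−4.85), the Wnt agonist Rspo3 (−4.85), the arginase Arg1 (−4.82), the transcription factor Ebf3 (−4.78) and Foxd1 (−4.71) came next. Tropomyosin 2 (Tpm2, −4.42), Eya4 and Eya1 (−4.40 each), the receptor gene Calcrl (−4.31), the BMP-binding Bmper (−4.31), the hyaluronan synthase Has2 (−4.30), the protease Fap (−4.30), Rspo1 (−4.18) and the nuclear receptor Nr2f1 (−4.15) made up the rest. Calcrl is also expressed by endothelium, whose markers fell as well.

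GDNF and its receptors fell on opposite sides of the tissue boundary. Ret stood at 4.56 and 5.0 on the mesenchyme arrays and at 11.07 and 10.70 on the tip arrays, 69-fold higher (6.10 ± 0.21, adjusted p = 2.8e-06). Gfra1, the co-receptor that binds GDNF, rose from 8.58 and 8.40 to 10.96 and 10.81 (2.39 ± 0.13). Gdnf itself was high in mesenchyme, at 8.91 and 8.71, and low in tip, at 6.10 and 5.87 (−2.83 ± 0.14, adjusted p = 1.2e-05). The groups did not overlap for any of these genes, as for every called gene. Of the 8 ligands and receptors of the family 3 rose and 2 fell. The third riser was the ligand Artn (0.75), which lost its call without mesenchyme replicate 2 (adjusted p = 0.063), and Gfra3, the receptor of artemin, fell (−1.0). Nrtn differed by 0.44 (adjusted p = 0.11, and 0.024 with the replicate block).

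Genes known to respond to Ret or to tune its signal rose together in the tip. Of 14 such genes 10 rose and 1 fell, with a median difference of 1.01 against 0.01 for all genes. Wnt11, a tip signal that Ret induces and that keeps Gdnf expressed, stood at 7.37 and 7.48 in mesenchyme and at 10.84 and 10.17 in tip (3.07 ± 0.21, adjusted p = 4.6e-05). The ETS factors Etv4 and Etv5, which carry Ret signalling into the nucleus, rose by 1.43 ± 0.13 and 1.74 ± 0.16. Etv4 was at 8.11 and 8.10 in mesenchyme and at 9.62 and 9.46 in tip, while its stalk level lay below that of mesenchyme (−0.61). The transcription factor Myb (2.86), the hepatocyte growth factor receptor Met (1.82) and the chemokine receptor Cxcr4 (1.02) rose as well. So did the feedback inhibitors Spry1 (1.93), the phosphatase Dusp6 (1.00) and Spred2 (0.65), the last of which lost its call without mesenchyme replicate 2 (adjusted p = 0.098). Spry2 (0.46, adjusted p = 0.042) was not called without either mesenchyme array (adjusted p = 0.15 and 0.22), and Spry4 (0.05), Spred1 (0.32) and the protease gene Mmp14 (−0.27) did not pass. Cdh2, which encodes N-cadherin, fell by 3.51 on the log2 scale.

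Most of the Ret response genes were also higher in the tip than in the stalk. Across all genes, tip against stalk, 521 genes were higher and 1268 lower, together 9.83% of genes. Leaving out either stalk array brought these counts to 197 to 205 and 724 to 800, and the replicate block to 1623 and 2131. Of the 14 Ret response genes 10 were higher in tip than in stalk and 1 was lower, and the median difference of stalk from mesenchyme was 0.07. Tip exceeded stalk by 2.34 for Wnt11, 2.04 for Etv4, 2.02 for Etv5, 1.94 for Cxcr4 and 2.18 for Ret. For Cdh1 the difference between tip and stalk was 0.56 ± 0.15 and did not pass (adjusted p = 0.057, and 0.012 with the replicate block). Cdh1 does not stand for all epithelial genes here. Tip exceeded stalk for 8 of 21 genes of tight junctions, and for 7 of 23 in the list of adherens junctions and desmosomes. No member of these 2 lists was called lower than in stalk. An excess over stalk was thus not limited to the Ret response genes. The summed linear intensity of stromal genes was 25958 to 27039 in stalk and 3885 to 4853 in tip. The part of stromal cells in these differences of tip from stalk was not tested.

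**Figure D2:**
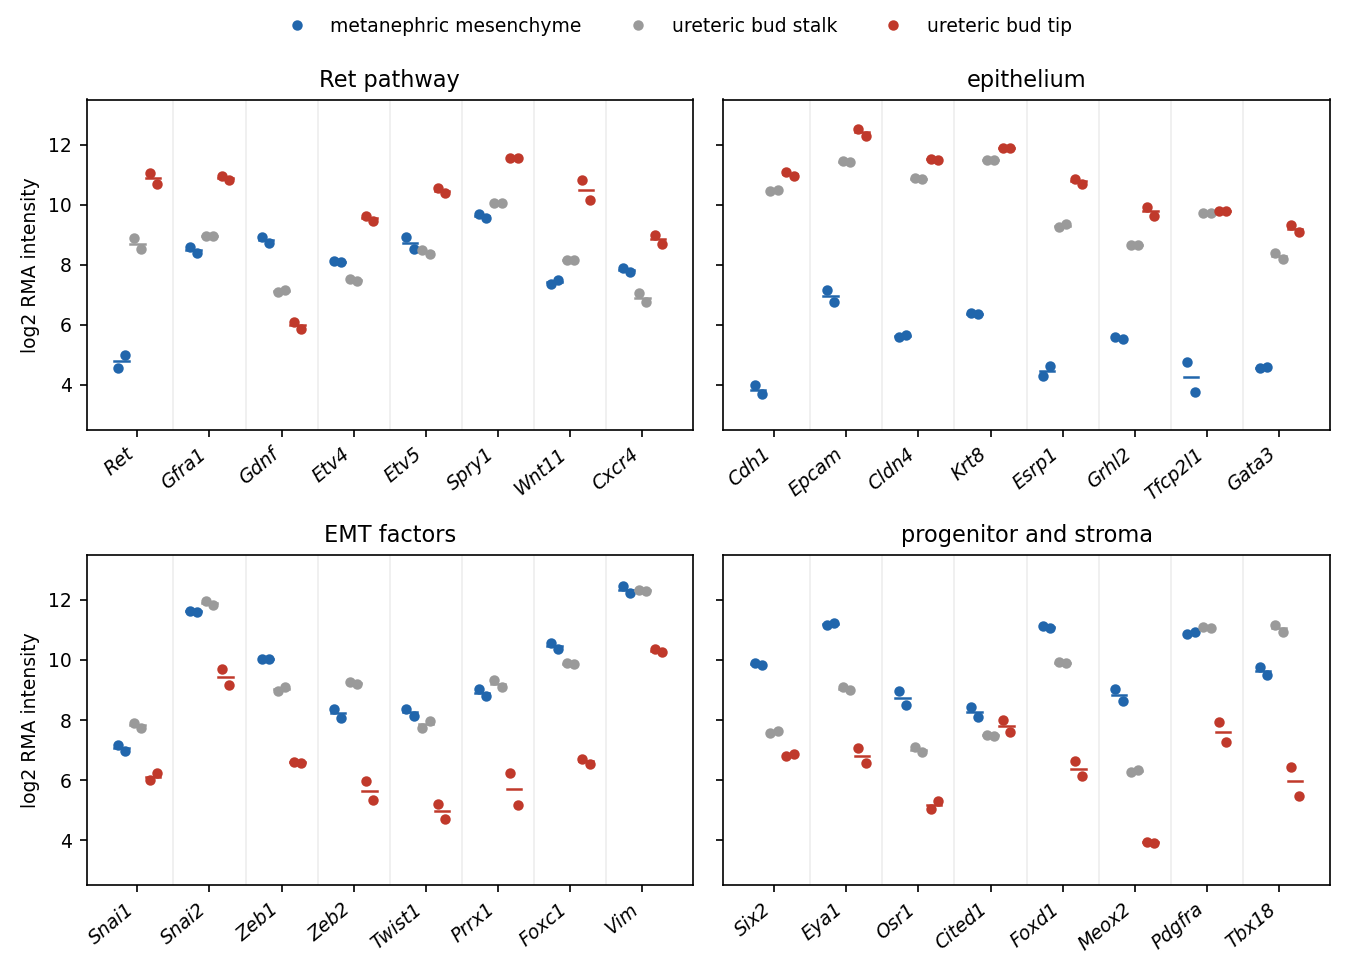
Each dot is the log2 RMA intensity of a gene on 1 array, blue for mesenchyme, grey for stalk and red for tip, with a short bar at the mean of the 2 arrays of a tissue. The dots for Ret, Gfra1, Wnt11 and Etv4 are higher in tip than in stalk and mesenchyme, the epithelial genes are high in tip and stalk, and the epithelial-mesenchymal transition (EMT) factors in the lower left panel are low in tip while most of their stalk dots lie near those of mesenchyme.

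Transcription factors of the nephric duct lineage rose as a group. Of 14 measured 11 rose and none fell, with a median of 2.07. Emx2, a homeobox gene needed for the bud to persist, stood at 6.06 and 5.68 in mesenchyme and at 11.19 and 11.10 in tip (5.27 ± 0.16). Sim1 (5.13), Gata3 (4.64), which guards duct identity, Lhx1 (4.24), which is needed to form the duct, and Tfap2a (4.10) followed. The ETS factor Elf5 (2.88), the SRY-box factors Sox8 (2.40) and Sox9 (1.28), which maintain tip branching, and the paired-box gene Pax8 (0.77) rose too. Pax8 lost its call without mesenchyme replicate 2 (adjusted p = 0.094). Sox8 was higher in tip than in stalk by 2.03, and Sox9 differed between them by −0.53, which did not pass (adjusted p = 0.19, and 0.020 with the replicate block).

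The grainyhead, CP2 and Ovol families, which control epithelial adhesion and barrier genes, each had a member high in the tip. Grhl2, an activator of junction genes in simple epithelia, rose from 5.59 and 5.54 in mesenchyme to 9.92 and 9.64 in tip (4.22 ± 0.14, adjusted p = 2.2e-06), and all 4 of its probe sets moved the same way. Its relatives Grhl1 (−0.16) and Grhl3 (0.13) did not pass, and Grhl3 was below the lower quartile in both tissues. Tfcp2l1 stood at 4.78 and 3.78 in mesenchyme and at 9.78 and 9.80 in tip, and its difference between tip and stalk did not pass (0.07 ± 0.28). The zinc finger repressors Ovol2 (3.22) and Ovol1 (1.29), which hold back mesenchymal genes, rose. The ubiquitous relatives Ubp1 (−0.23) and Tfcp2 (−0.41, adjusted p = 0.094) did not pass, though Tfcp2 was called lower with the replicate block (adjusted p = 0.022). In all 4 of 8 members rose.

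Most of the junction genes measured rose. Of 21 tight junction genes 16 rose and none fell (median 1.36), and of 23 adherens junction and desmosome genes 16 rose and none fell (median 0.94). Cldn4 stood at 5.60 and 5.65 in mesenchyme and at 11.50 on both tip arrays, a 59-fold difference. The scaffold proteins Cgn (3.03) and Tjp3 (2.12) and the adhesion molecule Cxadr (1.36) rose, while Tjp1, which mesenchymal cells also use, stood at 10.43 and 10.36 against 10.32 and 10.27 (−0.10). The adhesion molecule Epcam rose from 7.15 and 6.75 to 12.52 and 12.29 (5.46 ± 0.17), and the kidney cadherin Cdh16 by 5.16. The desmosomal genes Dsp and Dsg2 rose by 4.35 each, and the P-cadherin gene Cdh3 by 2.94. The catenins Ctnnb1 (−0.12) and Ctnna1 (0.23), which link any classical cadherin to actin, did not pass, and Ctnna1 was called higher with trend and robust variance (adjusted p = 0.0080).

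Polarity, keratin and apical transport genes followed the same line. Of 17 apical-basal polarity genes 6 rose and none fell, led by Pard6b (3.38), Llgl2 (2.35), Crb3 (2.18) and Patj (1.23), while the scaffold Pard3 (0.15) and the kinase Stk11 (−0.02) did not pass. Of 6 keratins 5 rose, with a median of 3.72. Krt8 stood at 6.38 and 6.35 in mesenchyme and at 11.88 and 11.90 in tip, and its partner Krt18 rose by 5.39, Krt7 by 4.24, Krt23 by 3.20 and Krt19 by 1.56. Krt20 was at 0.15 and did not pass. Among 21 apical trafficking genes 9 rose and 2 fell: the motor Myo5b (3.74), the syntaxin Stx3 (3.20), the epithelial adaptor subunit Ap1m2 (2.98) and the recycling GTPase Rab25 (2.29) were higher, and Ap1m1, the subunit that other cells use, fell by 0.83. The membrane serine proteases and their inhibitors moved up together, 6 of 8, with Spint1 (4.03), Prss8 (3.85), Spint2 (3.31) and Tmprss2 (3.26) leading. Of 9 splicing regulators 3 rose, Esrp1, Esrp2 (1.62) and Rbm47 (1.44), and Rbfox2, which favours mesenchymal exons, fell by 1.06.

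Transcription factors that drive epithelial-mesenchymal transition and that silence epithelial genes were low in the tip. Of 11 such genes 10 fell and none rose, with a median of −2.59. Zeb1 stood at 10.03 on both mesenchyme arrays and at 6.61 and 6.58 in tip (−3.44 ± 0.12, adjusted p = 3.3e-06), and Zeb2 at 8.37 and 8.08 against 5.96 and 5.32 (−2.59 ± 0.22). Snai2 stood at 11.64 and 11.59 in mesenchyme and at 9.70 and 9.16 in tip (−2.18), and Snai1 fell by 0.96. Foxc1 (−3.84), Twist1 (−3.30), Prrx1 (−3.20), Foxc2 (−2.98), Prrx2 (−1.72) and Twist2 (−1.49) fell too, and Snai3 did not pass (0.12). Tip lay below stalk for 10 of the 11, and the median of stalk against mesenchyme was −0.15. Snai1 and Zeb2 were higher in stalk than in mesenchyme, by 0.74 and 1.01, and lower in tip than in stalk by −1.70 and −3.59. The stalk arrays also held stromal genes near the mesenchyme level, with summed linear intensities of 25958 to 27039 in stalk and 28060 to 28754 in mesenchyme. The part of stromal cells in the stalk levels of EMT factors was not tested. Vim, which encodes the mesenchymal filament vimentin, stood at 12.46 and 12.23 in mesenchyme and at 10.35 and 10.26 in tip (−2.04), and Cdh11 fell by 3.31. Of 14 genes of the mesenchymal state 10 fell and none rose.

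Zeb and Snai proteins bind the E-box CACCTG, and the promoters of the genes that rose held it more often than those of other genes. The promoters are from RefSeq for build GRCm38.p6, from 250 bases before to 50 after each transcription start. They cover 14368 of the 18194 genes, matched by gene identifier, and Cdh1 and Ret are not among them. The 4 examples that follow, from the junction and trafficking genes above, show the hexamer close to the start. Each run is the 250 bases before the start, and capitals mark CACCTG, read as CAGGTG where it lies on the opposite strand.
Cldn4, chr5:134946935-134947184, minus strand: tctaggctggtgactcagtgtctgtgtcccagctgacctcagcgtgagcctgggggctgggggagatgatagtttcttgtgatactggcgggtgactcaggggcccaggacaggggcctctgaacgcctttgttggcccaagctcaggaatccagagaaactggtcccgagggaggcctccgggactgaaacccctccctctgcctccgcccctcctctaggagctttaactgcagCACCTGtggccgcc
Epcam, chr17:87635729-87635978, plus strand: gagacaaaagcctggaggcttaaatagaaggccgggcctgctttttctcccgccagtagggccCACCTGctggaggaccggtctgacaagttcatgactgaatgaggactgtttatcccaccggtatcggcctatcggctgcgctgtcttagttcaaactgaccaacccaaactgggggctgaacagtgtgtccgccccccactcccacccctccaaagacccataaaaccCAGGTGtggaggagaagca
Rab25, chr3:88548280-88548529, minus strand: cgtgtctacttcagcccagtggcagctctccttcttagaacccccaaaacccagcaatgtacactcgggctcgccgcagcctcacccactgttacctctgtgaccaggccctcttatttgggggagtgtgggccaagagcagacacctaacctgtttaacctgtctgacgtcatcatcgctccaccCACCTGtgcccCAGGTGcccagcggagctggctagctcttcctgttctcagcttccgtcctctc
Ap1m2, chr9:21312334-21312583, minus strand: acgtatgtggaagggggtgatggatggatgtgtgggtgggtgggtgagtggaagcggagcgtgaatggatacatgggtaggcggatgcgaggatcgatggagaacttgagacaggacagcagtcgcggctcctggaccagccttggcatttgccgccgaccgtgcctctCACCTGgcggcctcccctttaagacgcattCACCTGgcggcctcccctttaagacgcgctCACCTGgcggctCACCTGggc

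The match nearest to the start begins 14 bases before it in Cldn4, 19 in Epcam, 53 in Rab25 and 9 in Ap1m2, and these promoters hold 1, 2, 2 and 4 matches. For Ap1m2 the start meant is the one in the promoter table, and the RefSeq gene start lies inside the printed run, upstream of the match nearest its end. They were picked after their matches were seen and stand as examples only. Over all genes, CACCTG lay in a promoter of 399 of 1068 genes that rose (37.4%), 195 of 1153 that fell (16.9%) and 2706 of 12147 not called (22.3%). It was held by 20.2% of all 32851 promoters listed. By size of the difference the share ran from 11.7% of the 179 genes below −2 to 22.2% between −0.5 and 0.5 and to 46.6% of the 208 genes above 2. Mean GC content was 61.5% in the genes that rose, 61.3% in those that fell and 58% in those not called. The hexamer lay in the promoters of 9 of 17 tight junction genes and 8 of 13 polarity genes, and in 0 of 16 stromal and 0 of 15 interstitial matrix genes that have a promoter in the table. These counts take in members that did not rise, such as Pard3, and only 6 of 17 polarity genes rose. Among other lists the hexamer lay in 1 of 11 Ret response genes, 1 of 6 splicing regulators and 1 of 10 Wnt receptors. It also lay in 5 of 12 integrin genes, 5 of 12 collecting duct transport genes and 4 of 7 urothelial and stalk genes. Most measured members of these last lists were not called.

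Of 8 motifs searched on both strands, the 6 other hexamers differed less between the genes that rose and those that fell. The E-box CAGCTG lay in 19.3% of genes that rose and 23.3% of those that fell, the E-box CACGTG in 10.2% and 9.8%, and the E-box CATCTG in 15.2% and 17.5%. In genes below −2 and above 2, CACGTG lay in 6.7% and 13%. Their shares of all promoters were 16.3%, 7.15% and 17.2%, and of genes not called 18.3%, 10.3% and 15.5%. Of the rearranged hexamers, ACCCTG lay in 26.5% of genes that rose and 25.9% of those that fell, the hexamer CCACTG in 23.4% and 24.2%, and the hexamer CTCCAG in 40.8% and 42.1%, with shares of all promoters of 19.9%, 20.8% and 32.2%. In genes not called, ACCCTG lay in 22%, the hexamer CCACTG in 22.8% and the hexamer CTCCAG in 36.9%. The palindrome AACCGGTT, to which grainyhead proteins bind, lay in 7 of 1068 genes that rose and 2 of 1153 that fell, too few to compare, and in 0.146% of all promoters. The search was chosen after the expression results were known, a match is a description of the letters and not of binding, and genes of a family or neighbouring genes can share promoter sequence. With genes of a single promoter only, the shares were 33.1% of those that rose, 12.1% of those that fell and 19.4% of those not called.

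**Figure D3:**
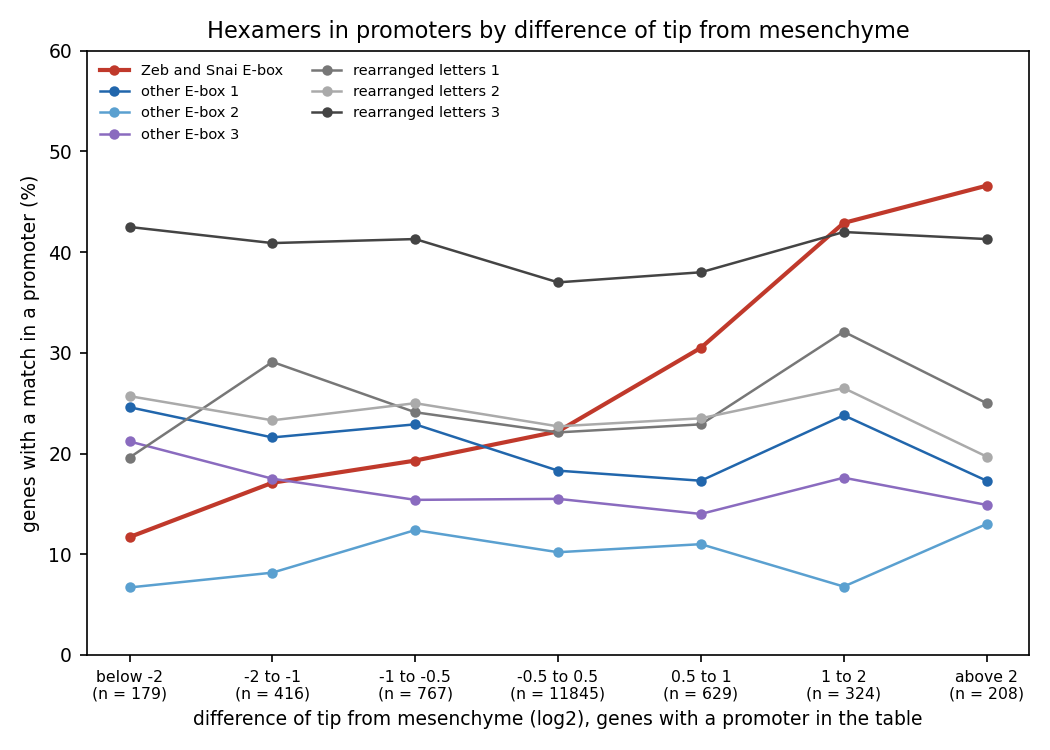
The y axis gives the percent of genes with a match in a promoter, and the x axis groups the genes by the difference of tip from mesenchyme in log2 units, with the number of genes in each group. The thick red line is the hexamer that Zeb and Snai proteins bind, which runs from 11.7% to 46.6%, the other coloured lines are the other E-boxes in the order of the text, and the grey lines are the rearranged hexamers in that order.

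The nephron progenitor programme was on the mesenchyme side. Of 23 of its genes 14 fell in the tip and 2 rose, with a median of −2.96. Six2, which keeps progenitors undifferentiated, stood at 9.88 and 9.84 in mesenchyme and at 6.80 and 6.86 in tip (−3.03 ± 0.12, adjusted p = 4.9e-06). Eya1, its partner upstream of Gdnf, stood at 11.17 and 11.23 against 7.05 and 6.55 (−4.40 ± 0.18). Crym (−4.04), Meox1 (−3.58), Osr1 (−3.56), the integrin Itga8 (−3.38), which the bud's nephronectin binds, Sall1 (−3.01), Wt1 (−2.96) and Uncx (−2.79) fell. Cited1, which marks the youngest progenitors, fell short of the threshold. It stood at 8.42 and 8.09 in mesenchyme and at 7.99 and 7.59 in tip, a difference of −0.46 ± 0.18 (adjusted p = 0.15). Cited1 was called lower with the replicate block (0.024), with quantile normalization (0.025) and without tip replicate 1 (0.047). Cited2 did not pass either (−0.51, adjusted p = 0.055), and was called lower with the block (0.012) and under 6 other settings. The members that rose were Six4 (0.67) and Etl4 (0.62), and neither was called without mesenchyme replicate 2 (adjusted p = 0.074 and 0.20).

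Most of the stromal and matrix genes measured were lower in tip than in mesenchyme and than in stalk. Of 23 stromal and ureteric mesenchyme genes 18 fell and 1 rose (median −2.38). Foxd1, which defines the renal stroma, stood at 11.12 and 11.06 in mesenchyme and at 6.63 and 6.14 in tip, 26-fold lower (−4.71 ± 0.17, adjusted p = 3.7e-06). Meis1 (−4.01), Tbx18 (−3.68), Meis2 (−3.65), Pdgfra (−3.31), Pdgfrb (−2.15) and Tcf21 (−2.15) fell, and the matrix protein gene Smoc2 rose by 1.18. Rarb did not pass (−0.52, adjusted p = 0.087, and 0.012 with the replicate block). Of these 23 genes 21 were lower in tip than in stalk, and the median of stalk against mesenchyme was −0.16. Their summed linear intensity was 28060 to 28754 in mesenchyme, 25958 to 27039 in stalk and 3885 to 4853 in tip.

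Interstitial matrix genes had the same shape. Of 27 genes 22 fell and 1 rose (median −1.50), 22 were lower in tip than in stalk, and stalk stood above mesenchyme with a median of 0.39. Col1a1 stood at 9.98 and 9.65 in mesenchyme and at 6.45 and 5.92 in tip (−3.63), Col3a1 fell by 2.92, the proteoglycan gene Vcan by 3.31 and periostin (Postn) by 3.18. The exception was Fbln2 (0.59), which was not called without either mesenchyme array (adjusted p = 0.068 and 0.10), with tip and mesenchyme arrays alone (0.051) or as a mean of its probe sets (0.18). Beside these falls, 4 of 8 smooth muscle markers fell, among them Myl9 (−3.04). Acta2, another of the 4 (−0.93), was not called as a mean of its 3 probe sets (−0.25, adjusted p = 0.31).

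**Figure D4:**
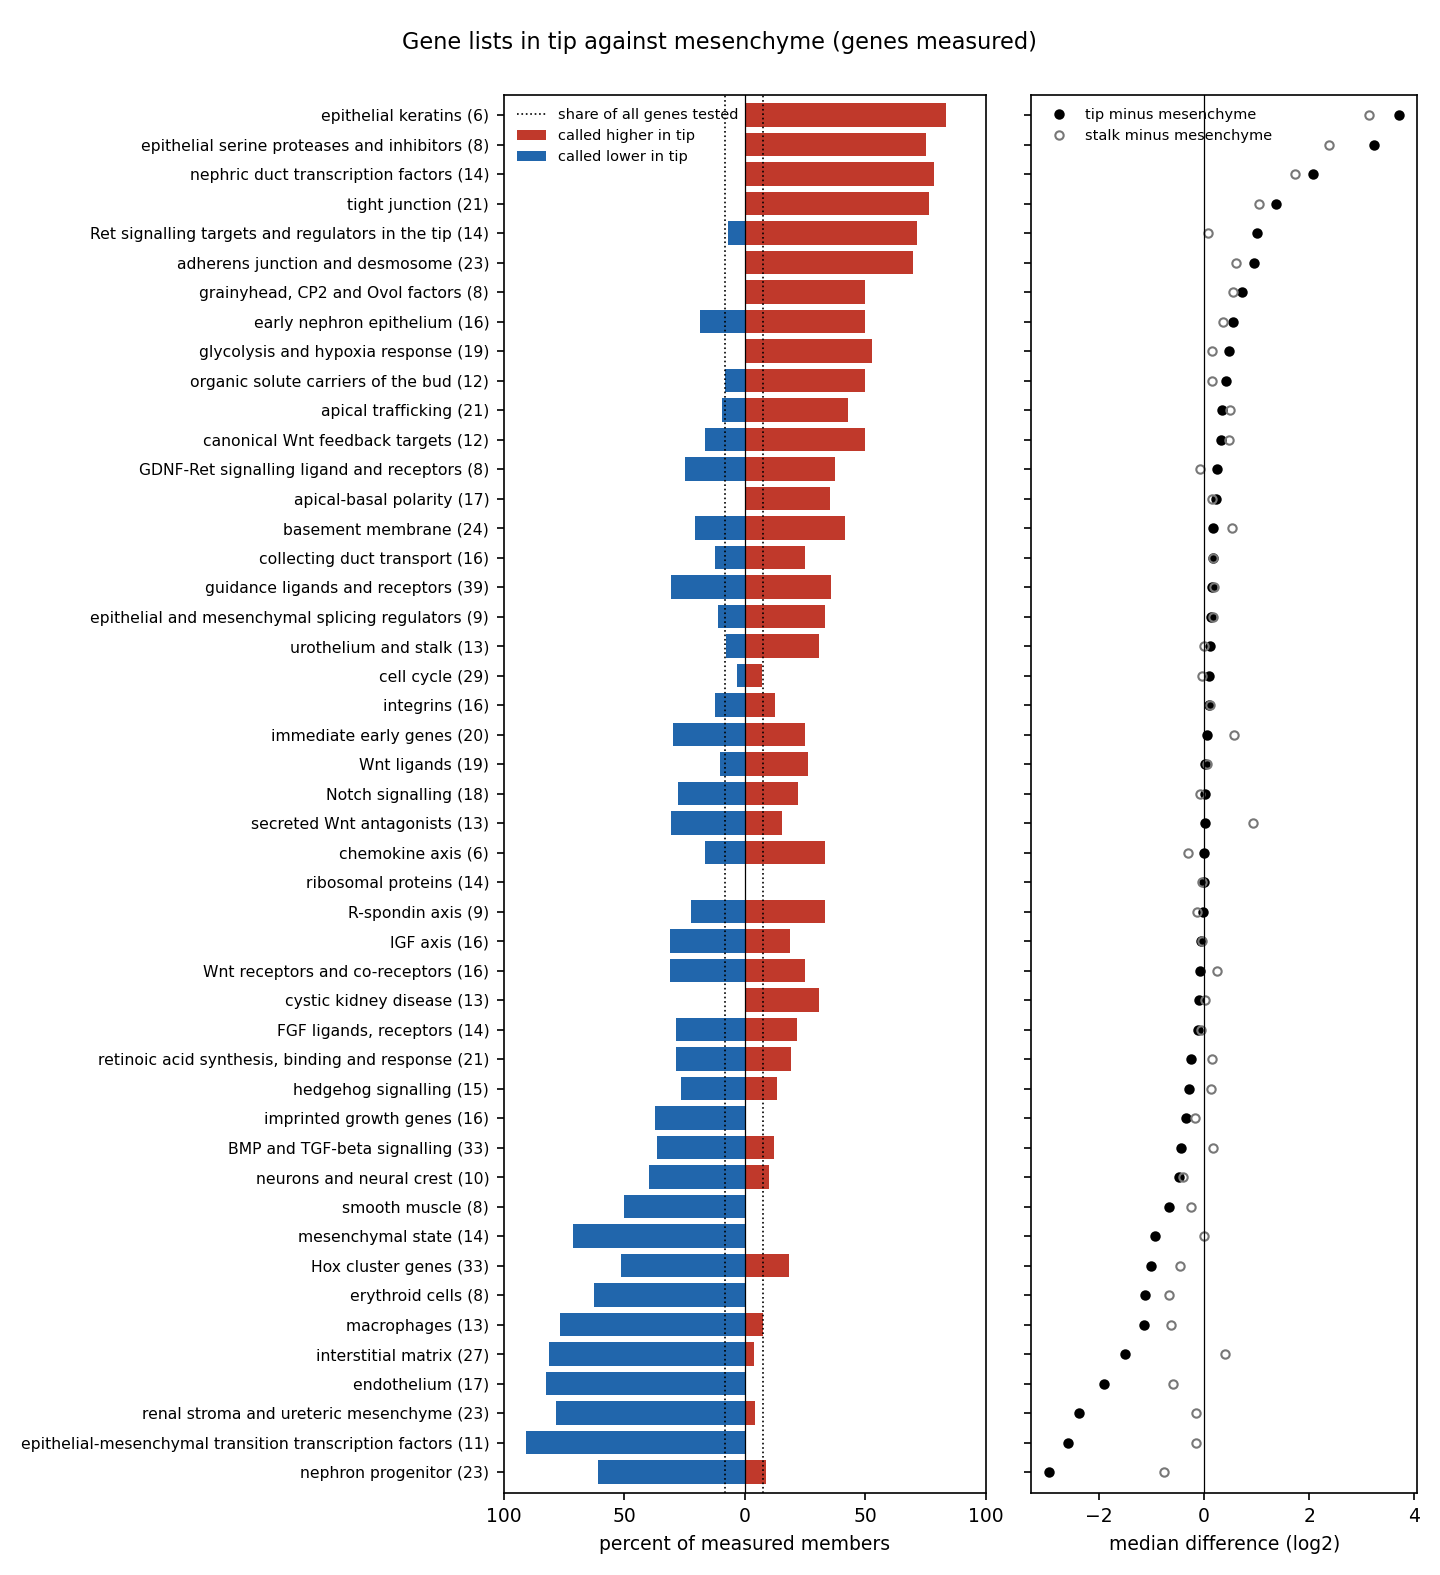
Rows are the gene lists with at least 6 measured genes, the number in brackets. Bars give the percent of measured genes called higher (red, right) or lower (blue, left) in tip, dotted lines the share of all genes (7.38% and 8.37%), filled dots the median difference of tip from mesenchyme and open dots that of stalk from mesenchyme, which share the mesenchyme arrays. The filled and open dots are close together for junctions and keratins and far apart for Ret response genes, stroma, interstitial matrix and EMT factors.

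Some Wnt ligands were higher in the tip, and Rspo1 and Rspo3 were higher in the mesenchyme. Of 19 Wnt ligands 5 rose, 2 fell and 12 were not called (median 0.02). Wnt9b, which induces the nephron progenitors, stood at 5.18 and 5.90 in mesenchyme and at 9.06 and 8.71 in tip (3.34 ± 0.24), and its difference from stalk did not pass (0.58). Wnt11 and Wnt6 (2.25) exceeded stalk, and Wnt7b (0.99), which stalk cells use to lengthen the medulla, did not (−0.08). Wnt5a (0.76, adjusted p = 0.045) was not called without either mesenchyme array (adjusted p = 0.075 and 0.20), nor under 5 other settings. Wnt4, made by the early nephron, fell by 0.90, and Wnt5b by 0.66, which was not called without mesenchyme replicate 1 (adjusted p = 0.22). Rspo3, which strengthens Wnt signals, stood at 8.91 and 8.84 in mesenchyme and at 4.13 and 3.93 in tip, and Rspo1 at 8.99 and 8.56 against 4.78 and 4.41.

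Their receptors and feedback genes moved both ways. Lgr5 (1.71), an R-spondin receptor, and Rnf43 (2.85) and Znrf3 (1.28), which remove frizzled receptors and are held back by R-spondin, rose in the tip, while Lgr4 did not pass (−0.03). Among the frizzleds Fzd6 (3.03), Fzd5 (1.91), Fzd8 (1.69) and Fzd4 (0.91) rose. Fzd1 (−1.69), Fzd2 (−1.59) and Fzd7 (−0.74) fell, the last not without mesenchyme replicate 1 (adjusted p = 0.060), as did the Wnt5a receptors Ror2 (−1.99) and Ror1 (−1.72). Of 12 canonical feedback targets 6 rose and 2 fell, Axin2 (1.34) and Ccnd1 (1.14) being higher and Nkd1 (−0.93) lower. Myc (−0.50, adjusted p = 0.045) was not called without mesenchyme replicate 1 or 2 (adjusted p = 0.22 and 0.14).

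Secreted Wnt antagonists came from both sides. Of 13 genes 2 rose and 4 fell, and with the replicate block 4 rose. Sostdc1, an antagonist of Wnt and BMP, stood at 3.79 and 4.42 in mesenchyme and at 7.89 and 7.23 in tip (3.45 ± 0.26). Dkk1 rose by 0.82 and lost its call without either mesenchyme array (adjusted p = 0.052 and 0.051). Frzb (−2.18), Sfrp1 (−1.69), Sfrp2 (−1.58) and Dkk2 (−1.31) fell. Dkk2 and Sfrp2 were higher in stalk than in mesenchyme, by 2.85 and 0.93.

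Of 14 FGF ligands and receptors 3 rose and 4 fell, 50% of them against 15.7% of all genes, 5 rose with the replicate block, and 2 fell without mesenchyme replicate 1. Fgfr2, the receptor through which FGFs act on the bud, stood at 9.69 and 9.61 in mesenchyme and at 10.72 and 10.77 in tip (1.10 ± 0.12), and Fgfr1 fell by 1.08. Fgf20, a survival factor for progenitors, fell by 1.21, and its relative Fgf9 from the bud rose by 0.62. Fgf9 was not called without either mesenchyme array (adjusted p = 0.17 and 0.11). Fgf8 did not pass (−0.60, adjusted p = 0.068, and 0.0049 with the replicate block). Fgf10 stood at 5.19 and 5.32 in mesenchyme and at 4.58 and 5.30 in tip, with overlapping arrays.

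BMP and TGF-beta signalling leaned to the mesenchyme. Of 33 genes 12 fell and 4 rose (median −0.44), 48.5% called against 15.7% of all genes. Tgfb2 stood at 8.19 and 8.04 in mesenchyme and at 4.26 and 4.40 in tip (−3.78 ± 0.14), Tgfb3 fell by 2.26 and the activin inhibitor Fst by 2.52. Bmp4, which restrains branching near the stalk, fell by 1.67, and its stalk level was above that of mesenchyme by 1.04. Bmp7, a tip and progenitor survival factor, rose by 0.79 and the receptor Bmpr1b by 2.28. Id1 (−0.97) and Id2 (−1.31), direct targets of BMP signalling, fell, and Id4 rose by 1.42. Grem1, the BMP antagonist that permits bud outgrowth, was below the lower quartile in both tissues (0.14).

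The enzyme genes of retinoic acid synthesis that were higher differed between the tissues. Aldh1a2, the retinaldehyde dehydrogenase of the stroma, stood at 11.17 and 11.15 in mesenchyme and at 8.25 and 8.15 in tip (−2.96 ± 0.12). In the tip its relatives were high: Aldh1a1 rose from 4.0 and 3.54 to 9.87 and 9.56, Aldh1a3 from 5.58 and 5.93 to 8.86 and 8.47 (2.91), and Aldh1a7 by 3.74. Aldh1a1 and Aldh1a7 are near copies and their probes may share signal. The retinol dehydrogenase Rdh10 (−1.27) and the binding protein Crabp2 (−1.19) fell, and of all 21 genes of the pathway 4 rose and 6 fell.

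Of the hedgehog genes 40% were called, of the Notch and IGF genes 50% each, in both directions, against 15.7% of all genes. Shh, made by bud epithelium, rose from 6.03 and 5.99 to 7.85 and 7.72 (1.77 ± 0.13), and was 0.97 lower in tip than in stalk. Gas1, a co-receptor that also binds Ret, fell by 2.22, and of 15 hedgehog genes 2 rose and 4 fell. The target Gli1 (−0.56, adjusted p = 0.049) was not called without either mesenchyme array (adjusted p = 0.10 and 0.25). Jag1 (2.02), Notch1 (1.18) and the feedback gene Nrarp (1.62) rose and Hey2 (−1.76) and Hey1 (−0.74) fell. In all 4 of 18 Notch genes rose and 5 fell, 3 without mesenchyme replicate 2. Igf1 fell from 8.50 and 8.25 to 5.82 and 5.11 (−2.91), Igf2 by 0.81, and the binding proteins Igfbp5 (−1.52) and Igfbp3 (−1.38) with them. Igfbp2 (2.52) and Igfbp1 (1.65) rose. Of 16 IGF genes 3 rose and 5 fell, and 5 rose with the replicate block.

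Guidance cues that place and limit the bud were divided in turn. Of 39 guidance genes 14 rose and 12 fell, 66.7% called against 15.7% of all genes. Slit2 stood at 9.34 and 9.41 in mesenchyme and at 11.21 and 11.16 in tip (1.82), and its receptor Robo2, through which it limits Gdnf, fell by 1.53 to below the lower quartile in tip. Efnb2 (2.54), Sema4d (2.44), Epha1 (2.17) and Sema3c (2.04) rose, and Ntn1 (−3.35), Epha3 (−2.28), Nrp2 (−1.86), Unc5c (−1.76) and Slit3 (−1.17) fell. Cxcl12 stood at 11.26 and 11.34 in mesenchyme and at 8.41 and 8.21 in tip (−2.99), opposite to its receptor Cxcr4.

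Basement membrane genes moved both ways. Of 24 genes 10 rose and 5 fell, 62.5% called against 15.7% of all genes. Npnt, nephronectin, the bud's ligand for the integrin Itga8, stood at 6.30 and 6.12 in mesenchyme and at 11.10 and 10.96 in tip (4.82 ± 0.14), opposite to Itga8. Frem2 (4.52) and its partner Fras1 (1.57), which anchor epithelium, rose, and Frem1 fell by 2.13. Lama1 (3.20), Lama5 (2.00) and Lamc1 (1.76) rose, while Lama2 (−1.09) and the nidogens Nid1 (−2.17) and Nid2 (−1.53) fell. The laminin receptor chain Itga3 rose by 1.92 and its relative Itga6 by 1.28, while the shared chain Itgb1 did not pass (−0.27). Of 16 integrin genes 2 rose and 2 fell, 25% called against 15.7% of all genes.

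Hox genes did not move as a block. Of 33 measured 17 fell and 6 rose (median −1.01), against 8.37% and 7.38% of all genes. Hoxa11 and Hoxd11, which act together in the mesenchyme to maintain Gdnf, fell from 9.82 and 9.67 to 6.71 and 6.52 (−3.13) and from 9.0 and 8.60 to 5.91 and 5.56 (−3.07). Hoxc10 (−3.43), Hoxc8 (−3.40), Hoxa10 (−3.29), Hoxd12 (−3.19), Hoxa9 (−3.09) and Hoxd10 (−3.04) fell with them. The genes that rose were Hoxd1, from 4.09 and 3.91 to 8.61 and 8.34 (4.47 ± 0.16), Hoxd8 (2.22), Hoxd3 (1.39), Hoxb6 (1.36), Hoxb4 (1.28) and Hoxd9 (1.00). Within the HoxD cluster Hoxd1, Hoxd3, Hoxd8 and Hoxd9 thus rose and Hoxd10, Hoxd11 and Hoxd12 fell. Hoxb7, whose promoter is widely used to mark the bud, stood at 3.86 and 4.08 in mesenchyme and at 3.96 and 4.24 in tip on its only probe set, near the lower quartile of the arrays, and did not pass (0.13), and Hoxb9 did not pass (0.04).

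Some transport genes were higher in the tip than in mesenchyme, among them genes of the later collecting duct. The organic anion transporter Slco4c1, counted here with the solute carriers of the bud, stood at 3.43 and 3.46 in mesenchyme. It stood at 9.11 and 8.37 in tip (5.29 ± 0.27), and exceeded stalk by 3.15. The sodium channel subunits Scnn1g (3.15) and Scnn1b (1.81) and the sodium pump subunit Atp1b1 (2.05) rose, while the subunit Scnn1a (0.07) and the water channel Aqp2 (0.10) did not pass. Of 16 collecting duct transport genes 4 rose and 2 fell, 37.5% called against 15.7% of all genes. Against stalk, 0 of these 16 were higher in tip and 3 were lower. Of 12 solute carriers 6 rose and 1 fell, the iron exporter Slc40a1 (−2.49). Of 13 urothelial and stalk genes 4 rose and 1 fell, and of 16 early nephron genes 8 rose and 3 fell, several of which, such as Lhx1, Jag1 and Npnt, bud cells also express. Of 13 cystic kidney disease genes 4 rose and none fell in the main fit. A single gene fell with the replicate block, with trend and robust variance and with quantile normalization. The 4 that rose were Pkhd1 (4.22), Glis3 (2.86), Cys1 (1.93) and Bicc1 (1.53), and Pkd1 did not pass (−0.32).

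Genes of glucose uptake and glycolysis were among those higher in the tip. Of 19 genes of glycolysis and the hypoxia response 10 rose and none fell. A single gene fell with the replicate block, as a mean of probe sets, and without tip replicate 1 or tip replicate 2. The count that rose was 6 without mesenchyme replicate 1 and 5 without replicate 2. Slc2a3 (2.37), Slc2a1 (1.32), Hk1 (1.15) and Pdk1 (0.98) led. Of 29 cell cycle genes 2 rose and 1 fell, 10.3% against 15.7% of all genes. The counts were 5 and 3 with the replicate block, 8 and 3 with trend and robust variance, and 6 and 3 with quantile normalization. Mki67, a marker of cycling cells, stood at 10.86 and 10.77 in mesenchyme and at 10.96 and 10.80 in tip (0.06), with overlapping arrays. The cell cycle inhibitors Cdkn1a (2.12) and Cdkn1c (−1.65) moved in opposite directions. Of 16 imprinted growth genes 6 fell and none rose, and 10 fell and 1 rose with trend and robust variance. Those that fell included Dlk1 (−2.55), Meg3 (−2.27) and Peg3 (−1.26). Of 14 ribosomal protein genes 0 were called in the limma fit, and 0 had an unadjusted p under 0.05 (median −0.01).

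Immediate early genes, which respond to stimuli within minutes, did not shift one way. Of 20 genes 5 rose and 6 fell, with a median of 0.06. Without mesenchyme replicate 2 or tip replicate 1, 3 rose, and without mesenchyme replicate 1, 3 fell. Fos stood at 12.44 and 12.52 in mesenchyme and at 11.36 and 11.22 in tip (−1.19), and Fosl2 rose by 2.67.

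Markers of cells that the dissection could carry along were lower in the tip, as given above by their sums. The endothelial genes Plvap (−2.56) and Pecam1 (−1.94), the embryonic globins Hbb-bh1 (−2.91) and Hba-x (−2.47) and the complement genes of macrophages C1qb (−2.71) and C1qa (−2.47) fell. Of 8 erythroid genes 5 fell and none rose. Of 13 macrophage markers 10 fell and 1 rose, the pan-leukocyte gene Ptprc (1.22). Without the dimmest genes 4 fell, but that setting leaves dim members untested. Ptprc was not called without mesenchyme replicate 2 or tip replicate 1 (adjusted p = 0.12 and 0.10), nor as a mean of its 2 probe sets (0.080). Of 10 neuronal and neural crest genes 4 fell, among them Stmn2 (−2.50), Dcx (−2.31) and Elavl4 (−2.20), and the 1 that rose was Ret, which bud tips express. The sex-linked gene Xist fell (−0.67), but not without mesenchyme replicate 2 (adjusted p = 0.051) or as a mean of its 3 probe sets (−0.12), and without tip replicate 1, 3 of the 4 sex-linked genes fell. No endothelial marker had a tip mean below the lower quartile, and 1 erythroid and 1 macrophage marker were.

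**Figure D5:**
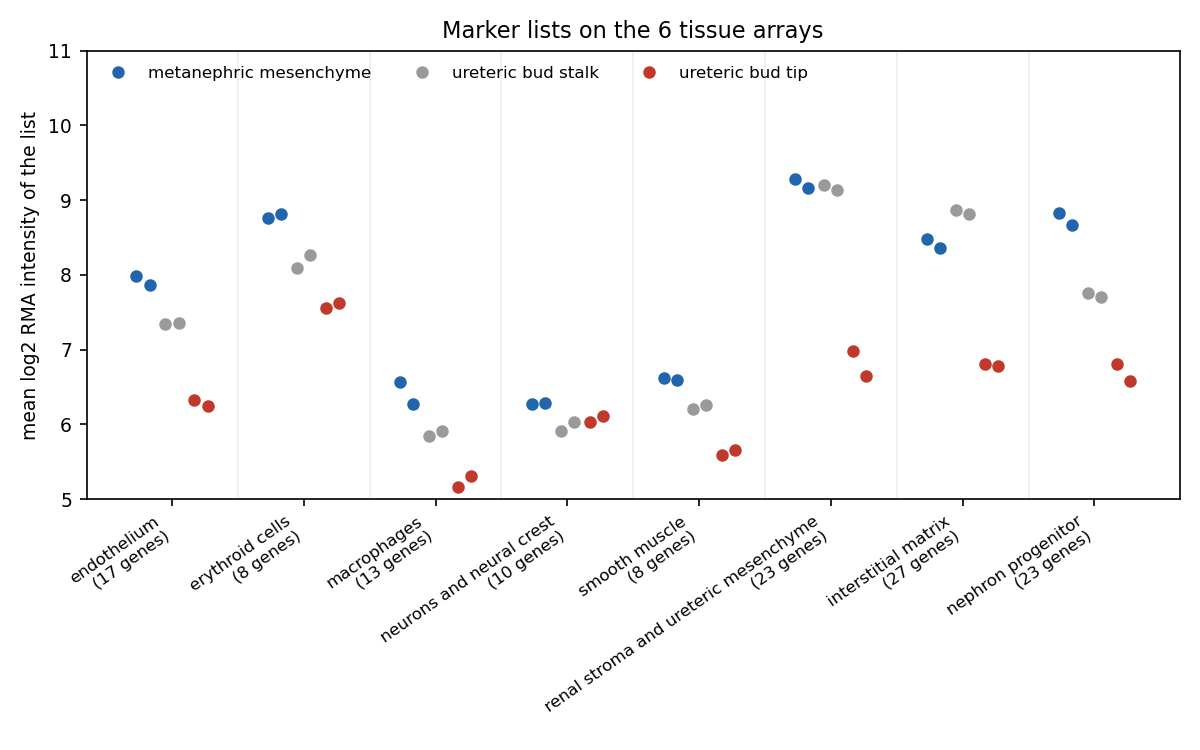
Each dot is the mean log2 RMA intensity of a marker list on 1 array, blue for mesenchyme, grey for stalk and red for tip. Both tip dots lie below both mesenchyme dots in every list shown, and for stroma and interstitial matrix the stalk dots lie with or above the mesenchyme dots.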

How the data were processed

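The authors' deposited table holds RMA intensity values on a linear scale, recalculated by them over all 7 arrays together. RMA is named in the submitters' processing notes without a version, and such values understate changes of dim genes; the arrays were Affymetrix mouse chips, per the labels. Values were put on the log2 scale without an offset. Of 45101 probe sets 64 were controls, 34945 named 1 gene, 932 several and 9160 none. Genes were named from the platform annotation through Entrez identifiers, of which 99.42% matched RefSeq. A gene was represented by its brightest probe set, judged by the mean of all arrays, which gave 18194 genes. limma 3.58.1 (R 4.3.3) was fitted to the 6 tissue arrays with 3 residual and 4.49 prior degrees of freedom, without the cell line. Tests were two-sided with Benjamini-Hochberg adjustment over all genes. The fit was run on simulated data with known differences. Their errors were independent between arrays, unlike those of the real arrays, so the run does not measure the error rate here. The number of arrays limits the precision, and no file used here gives a detection call. Named genes were the 15 largest rises and falls among called genes with a gene name whose tip and mesenchyme arrays did not overlap. Up to 4 members of each of 48 gene lists with the largest differences were added. So were members of pathways whose role requires it and 7 tissue marks. The members and lists were chosen with earlier results of these data known. Deviations of same-numbered replicates correlated at 0.39, 0.57 and 0.43 between pairs of tissues across all non-control probe sets. The numbers were therefore taken as pairs for the block, although the labels state no pairing. Alternatives concerned the arrays fitted, the block, variance, scaling, offset, probe sets and single arrays left out. Promoters and motifs were handled as the report states, with Python 3.11.15. Beyond the choice of probe sets, the mIMCD-3 array was not analysed here.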

Additional observations from a re-analysis of the deposited data

Results flagged for a closer look

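For 12 of the named genes the tip and the stalk departed from mesenchyme in opposite directions, each departure called in the limma fit, and tip and stalk also differed from each other at an adjusted p under 0.05. Both departures use the same mesenchyme arrays, so the difference between tip and stalk is the test. Etv4 and Cxcr4, genes of the branching tip, were higher in tip than in stalk by 2.04 and 1.94, above mesenchyme in tip and below it in stalk. The other 10 lay below mesenchyme in tip and above it in stalk. The stroma list as a whole had a summed linear intensity of 25958 to 27039 in stalk, 28060 to 28754 in mesenchyme and 3885 to 4853 in tip, and the interstitial matrix list a median of 0.39 in stalk against mesenchyme. The part of these markers in the differences was not tested. Among the EMT factors these were Snai1, with a tip minus stalk difference of −1.70, and Zeb2 (−3.59). Tbx18, a factor of the mesenchyme around the ureter, had −5.09, the matrix genes Postn and Nid2 −4.60 and −2.50, the Wnt antagonists Dkk2 and Sfrp2 −4.17 and −2.50, and the BMP ligands Bmp4 and Bmp5 −2.70 and −1.38. Gli1, a target of hedgehog signalling, had −1.96. The calls of Bmp5 and Gli1 against mesenchyme were lost without either mesenchyme array (adjusted p = 0.25 and 0.071 for Bmp5, 0.10 and 0.25 for Gli1).

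Among the 9160 probe sets to which no gene is assigned, which the comparison did not use, 178 were called higher and 161 lower in tip, 3.7% of them against 15.7% of genes.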

How the results depend on the processing

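The count of genes that rose in the tip (1342) went to 2037 with the replicate block, to 2083 over all probe sets and to 876 at an adjusted p under 0.01, and ranged from 899 to 1508 with 1 array left out. The count that fell (1523) went to 2331, 2429 and 980, and ranged from 987, without mesenchyme replicate 1, to 1927. Tip against stalk, 521 higher and 1268 lower became 1623 and 2131 with the block, and ranged from 197 to 769 and from 724 to 1789 with 1 array left out. The block changed counts in 32 of 48 lists. Against mesenchyme it changed no call of a named gene beyond those given beside their results, and tip against stalk it kept all 185 calls of named genes and added 28. Under all 13 other settings that keep every gene, 790 genes remained called higher and 903 lower. These settings are not all separate checks. Leaving out either stalk array leaves no spread within stalk and repeats the fit of tip and mesenchyme arrays alone. Of 280 named genes 253 kept their side of the threshold under every alternative that tested them, and none reversed. Among all genes Ap1s2 alone was called in opposite directions, at 0.66 on its brightest probe set and −0.57 as a mean of its probe sets. With 2 arrays a group, small differences of dim genes cannot be resolved.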
